A study of Litchi chinensis with 18 samples.

Results

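The genes LITCHI028690 and LITCHI026999 were described here, which are 2 of the 37401 gene models in the expression table of litchi carpels and stamens. They were chosen by their measured values, because they had the largest rise among abundant models in the carpel of functionally female flowers over the carpel of functionally male flowers (M). That rise is therefore a description of the choice and no test of it is given. The annotation of the table names LITCHI028690 (identifier LITCHI028690.m1.gene) as cytochrome P450 78A5 and LITCHI026999 (LITCHI026999.m1.gene) as protodermal factor 1. Both were matched to these names through proteins of Arabidopsis thaliana. Both had their highest level in the female carpel in every library, at 117 ± 2.83 FPKM and 553 ± 32.8 FPKM (SD, n = 3), and neither reached 4 FPKM in any library of another organ.

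Cytochromes P450 are haem enzymes of the endoplasmic reticulum that insert oxygen into small molecules. The CYP78A family is plant-specific, and its Arabidopsis member CYP78A5, also called KLUH, promotes the growth of leaves, floral organs and the integuments of the ovule, so that more of it gives larger organs and seeds. It acts beyond the cells in which it is made. PROTODERMAL FACTOR 1 (PDF1) of Arabidopsis encodes a proline-rich protein of the cell surface, and its RNA marks the outermost cell layer of shoot and floral meristems and of young organs, ovules included. Its promoter is bound in Arabidopsis by homeodomain-leucine zipper proteins of class IV, such as ATML1 (MERISTEM L1) and PDF2, which specify the epidermis. These roles are background from Arabidopsis and were not measured in litchi.

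Litchi bears flowers of separate sexual function on the same inflorescence, and carpels and stamens were detached from each type in the cultivar 'Feizixiao', grown in 1 orchard. F-carpel and F-stamen came from full-bloom flowers that functioned as female and had rudimentary stamens. M-carpel and M-stamen came from full-bloom flowers that functioned as male and whose rudimentary pistil was not obvious. The organs m-carpel and m-stamen came from full-bloom, functionally male flowers with an obvious rudimentary pistil. The study states that these flower types generally open one after another, so flower type and time of bloom cannot be told apart. Each organ was sequenced in 3 libraries, 18 in all, and none of the plants of this comparison is described as treated. The material was taken in triplicate from several sides of the tree. No label states that the libraries of an organ came from separate trees, so the p-values below measure the spread between these libraries only.

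Total counts per library were between 25689398 and 32302522 (median 29945742). CPM denotes counts scaled to the library total. Taking 3 counts as the floor, a gene without a count at the lowest total may still have had up to 0.117 CPM. Intervals and floors cover counting error only. The organ labels were checked with marker genes. The summed level of the stamen identity genes LcMADS50 and LcMADS75 was 565 to 983 FPKM in the stamen libraries and 39.0 to 142 FPKM in the carpel libraries. Among the carpels LcMADS50 stood out in M-carpel, with 76.7 FPKM against 2.61 FPKM in F-carpel and 4.01 FPKM in m-carpel. LcMADS75 did not, with 61.4, 79.3 and 35.9 FPKM in the same order. The share of stamen RNA in the M-carpel libraries was not tested. The summed level of 20 tapetum and pollen models was 2441 to 5677 FPKM in stamens and 118 to 374 FPKM in carpels. The summed level of 26 carpel and ovule models did not set F-carpel above the stamens. It was 384 to 395 FPKM in F-carpel, 948 to 1039 FPKM in M-carpel and 1148 to 1192 FPKM in m-carpel, against 374 to 382 FPKM in F-stamen, 422 to 432 FPKM in M-stamen and 331 to 366 FPKM in m-stamen. The list took in every model whose annotation names BEL1, and so also BEL1-like proteins. Its largest level was that of BEL1-like homeodomain protein 1 (LITCHI018977). This model had 130 FPKM in F-carpel, 231 FPKM in F-stamen, 606 FPKM in M-carpel and 660 FPKM in m-carpel. The sum is weighted to this model and is no firm check of the labels. Of the 26 models, 10 had their highest mean in F-carpel, while this was M-carpel for 7 and m-carpel for 4. CRABS CLAW had its highest mean in a stamen and not in a carpel (56.2 FPKM in M-stamen, 31.2 FPKM in M-carpel and 1.37 FPKM in m-carpel). So did the BEL1 homologue LITCHI022058 (17.9 FPKM in M-stamen, 8.32 FPKM in F-carpel). BEL1-like homeodomain protein 9 (LITCHI018324) had 11.6 FPKM in m-stamen and 9.90 FPKM in F-carpel. The NGA3 model LITCHI000025 was highest in F-stamen by a small margin (0.928 FPKM, against 0.913 FPKM in M-carpel and 0.853 FPKM in F-carpel). LcMADS51, the AGL11 or SEEDSTICK homologue that marks ovules, reached 32.9 FPKM in F-carpel but 7.85 FPKM in m-carpel and 1.12 FPKM in M-carpel.

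LITCHI028690 had 117.0, 120.1 and 114.4 FPKM in the 3 libraries of F-carpel, from 8574, 8309 and 8121 counts. In F-stamen it had 0.794, 0.442 and 0.199 FPKM, from 57, 30 and 14 counts. The F-carpel libraries stood together, with a coefficient of variation of 2.41%, and all of them were far above F-stamen, where the counts differed 4.07-fold between libraries. In M-carpel it had 8, 0 and 3 counts, in m-carpel 3, 3 and 0, in M-stamen 0, 0 and 5 and in m-stamen 0, 4 and 0. In these 12 libraries only 3 were above the floor of 3 counts, and 6 held no count at all. The summed counts of the 3 libraries gave 269.5 CPM in F-carpel (95% Poisson interval 266.2 to 272.9), 1.12 CPM in F-stamen (0.916 to 1.37) and 0.139 CPM in M-carpel (0.0692 to 0.248). M-stamen, m-carpel and m-stamen lay between 0.0429 and 0.0673 CPM, and the intervals of these organs and of M-carpel overlapped. By these summed counts the order of the organs was F-carpel, then F-stamen, then the other organs, whose levels could not be ordered at this depth. The intervals leave out the spread between libraries. F-stamen replicates 1 and 3, at 1.84 and 0.472 CPM, lay outside the interval of F-stamen.

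LITCHI026999 had 542, 589 and 526 FPKM in F-carpel, from 40808, 41872 and 38332 counts. It ranked between 36 and 42 among all models in these libraries, while LITCHI028690 ranked between 503 and 513. Unlike LITCHI028690, it was counted in all 18 libraries. It had 2.29, 3.60 and 3.17 FPKM in F-stamen, and 2.27, 1.62 and 2.55 FPKM in m-stamen. These organs came next after F-carpel and their libraries overlapped. M-stamen followed with 0.748, 0.839 and 1.51 FPKM, below every library of F-stamen and m-stamen. M-carpel had 0.764, 0.421 and 0.704 FPKM and m-carpel 0.781, 0.214 and 0.598 FPKM, so these carpels held the lowest means and overlapped each other and M-stamen. In a carpel of the functionally male flower types LITCHI026999 was thus lower than in any of the stamens by its mean, although M-stamen was not separate from either carpel. The smallest count of the gene was 16, in m-carpel replicate 2.

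**Figure D1:**
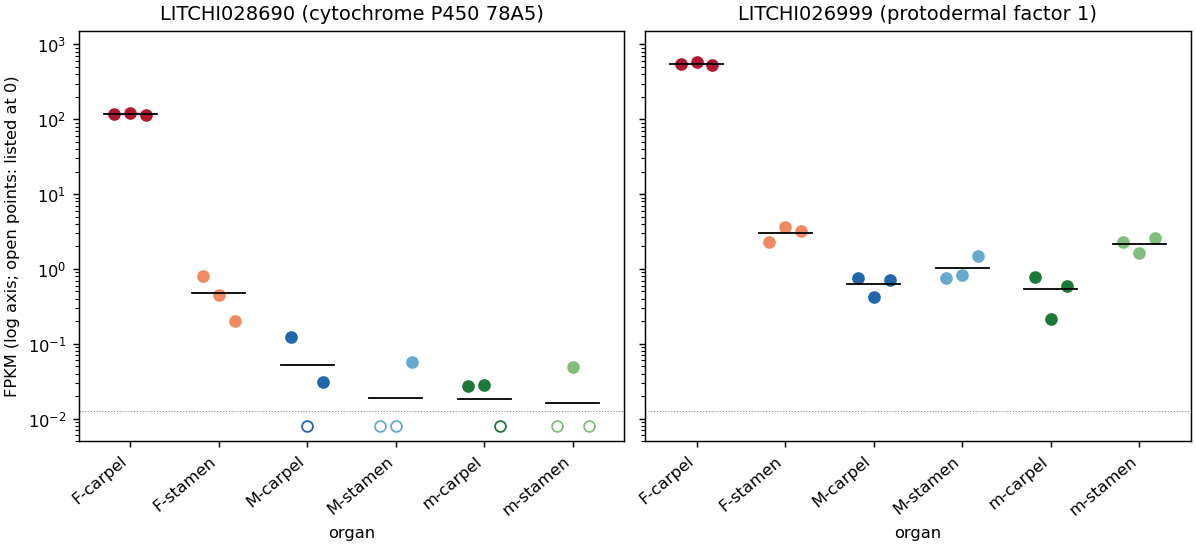
FPKM of LITCHI028690 and LITCHI026999 in each of the 3 libraries of the 6 organs, on a log axis, with a bar at the mean of the organ; open points below the dotted line are libraries listed at 0. All F-carpel libraries lie above 114 FPKM for LITCHI028690 and above 526 FPKM for LITCHI026999, and no other library is above 3.60 FPKM.

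The mean level of LITCHI028690 in F-carpel was 245-fold that in F-stamen and 2258-fold that in M-carpel. On the log2 scale fitted by edgeR to the counts, F-carpel was higher by 7.79 (standard error, SE, 0.61) than F-stamen, by 10.75 (SE 0.75) than M-carpel and by 11.68 (SE 0.79) than m-carpel. The differences from M-stamen, 11.89 (SE 0.80), and from m-stamen, 12.04 (SE 0.82), rest on sums of 5 and 4 counts. Without M-stamen replicate 3 or m-stamen replicate 2, the libraries that hold these counts, the fitted differences became 15.77 and 15.78, and without M-carpel replicate 1 the difference from M-carpel became 11.96. These fitted values depend on how a count near 0 is treated and are no bounds.

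LITCHI026999 was 183-fold higher in F-carpel than in F-stamen, 257-fold higher than in m-stamen, 536-fold higher than in M-stamen, 878-fold higher than in M-carpel and 1040-fold higher than in m-carpel, by mean FPKM. The fitted log2 differences were 7.39 (SE 0.36) from F-stamen, 7.53 (SE 0.36) from m-stamen, 8.82 (SE 0.39) from M-stamen, 9.58 (SE 0.40) from M-carpel and 9.77 (SE 0.41) from m-carpel. The fit scales each library by a further factor (TMM), which the deposited FPKM lacks. This factor was 1.11 to 1.16 in F-carpel and 0.823 to 0.833 in m-stamen. Folds by FPKM are therefore not the same measure as fitted differences, most of all for m-stamen. For both genes the F-carpel libraries overlapped those of no other organ. F-carpel chose the genes, so nothing is read from this. The share of all tested genes that differed from F-carpel by the thresholds used here was 28.6% for M-carpel, 34.3% for m-carpel, 32.2% for F-stamen, 35.9% for M-stamen and 42.7% for m-stamen. Such a gene is said to be called, which requires a false discovery rate (FDR) below 0.01 together with a change of 1 or more on the log2 scale, up or down. In RNA of whole organs, fewer cells of a type and less RNA per cell cannot be told apart.

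Expressed as a share, F-carpel held 99.5% of the summed means of the 6 organs for LITCHI028690 and 98.7% for LITCHI026999. Among the 625 models with at least 100 FPKM in F-carpel the median share was 28.5%. A share of 99% or more was found in 2 of them and of 95% or more in 5. LITCHI028690 had the highest share and LITCHI026999 came after 2 others. The share is built from F-carpel and M-carpel values, which chose the genes, and the 625 models were taken by their F-carpel level. A high place is thus partly set by the choice, and nothing is read from it. Between them stood the model Litchi_chinensis_newGene_3683, annotated as Snakin-1, a small cysteine-rich peptide (244 FPKM in F-carpel, share 99.3%). The thaumatin-like protein LITCHI023086 (260 FPKM, 98.4%) and Cyclin-D3-1, LITCHI001557 (130 FPKM, 95.3%), a cell-cycle regulator, came next. The replicate error of LITCHI028690 in F-carpel, 2.41%, was below the median coefficient of variation of these 625 models, 4.34%, and that of LITCHI026999, 5.94%, was above it.

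**Figure D2:**
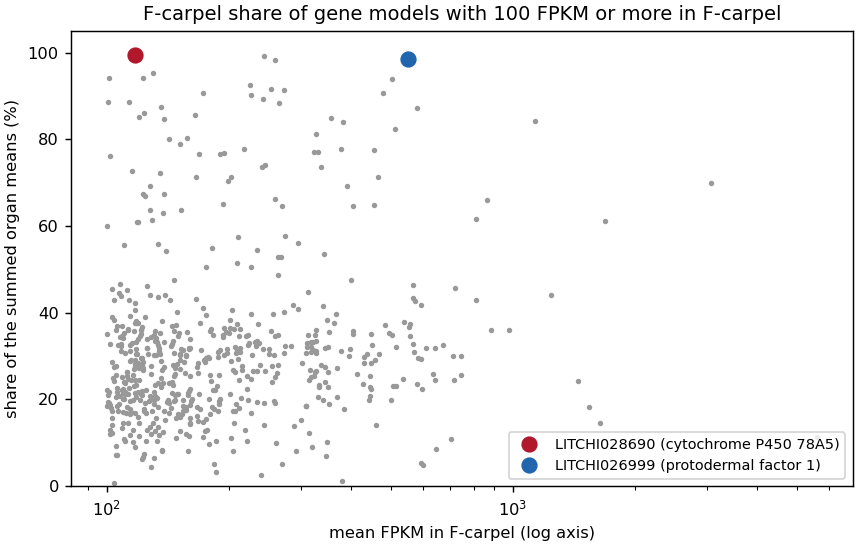
Share of the summed organ means held by F-carpel (%) against the mean FPKM in F-carpel (log axis) for the 625 gene models with at least 100 FPKM there; each grey point is 1 model and the coloured points are the 2 genes. They lie at 99.5% and 98.7%, against a median of 28.5%. The 2 genes were chosen by F-carpel values, so their place is a description.

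Abundant here means that the average CPM over the 18 libraries, put on the log2 scale by edgeR, was not below 5. Of the 7804 models called between F-carpel and M-carpel, 2157 passed this limit. LITCHI028690 lay just inside at 5.31 and LITCHI026999 well inside at 7.60. This is an average of CPM and not of log2 CPM, so it rests on F-carpel for both genes. F-carpel held 25004 of the 25131 counts of LITCHI028690. For LITCHI026999 it held 121012 counts, against at most 643 in another organ. Next in the order of the log2 difference were Cyclin-D3-1 (8.48), the galactosyltransferase LITCHI011995 (8.13) and the thaumatin-like LITCHI023086 (8.11). Without the limit on abundance, LITCHI028690 would have been at place 40 and LITCHI026999 at place 80 of that order. LITCHI011995 was less bound to the female carpel than the 2 genes, as its mean was 166 FPKM in F-carpel but 55.2 FPKM in F-stamen and 10.6 FPKM in m-carpel.

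Differences among F-stamen, M-stamen, m-stamen and m-carpel were not used by the rise that chose the genes and were tested, which made 6 pairs of organs. The limit on abundance did use an average over all 18 libraries, to which F-carpel gave nearly all counts of the 2 genes. The main fit also shared its estimate of spread with F-carpel and M-carpel, so a fit of the 4 organs alone is given below. In the fit with 6 organs LITCHI028690 was higher in F-stamen than in M-stamen, m-stamen and m-carpel. By edgeR's quasi-likelihood test, with p-values adjusted by Benjamini-Hochberg over 27247 genes, the log2 difference of F-stamen was 4.09 from M-stamen (SE 0.91, FDR 0.00179), 4.25 from m-stamen (SE 0.95, FDR 0.00168) and 3.89 from m-carpel (SE 0.88, FDR 0.00134). In each of these pairs the lowest F-stamen library was above the highest library of the other organ. The other pairs had log2 differences between -0.37 and -0.16 with SE of 1.47 to 1.60 and were not called (FDR 0.860 to 0.963), and such errors leave room for large differences either way. Thus 3 of the 6 pairs were called for LITCHI028690, and 30.2% of all genes tested were called in at least 3. The share of all genes that were called against F-stamen was 14.9% for M-stamen (7.91% higher in F-stamen), 19.0% for m-stamen (10.7% higher in F-stamen) and 30.7% for m-carpel (20.0% higher in F-stamen).

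These calls of LITCHI028690 depended on the libraries in the fit. When only the 4 organs were fitted, without the 6 libraries that chose the gene, the log2 differences were 4.06, 4.21 and 3.91, but their FDR rose to 0.0387, 0.0333 and 0.0322 and 0 of the 6 pairs were called by edgeR, with 3 at an unadjusted p below 0.05. DESeq2 called 3 pairs with the 6 organs. Without F-stamen replicate 1, the library with 57 counts, 1 pair was called, and the FDR was 0.0119 against M-stamen and 0.0101 against m-stamen.

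In the fit with 6 organs LITCHI026999 was higher in F-stamen and in m-stamen than in M-stamen and m-carpel. F-stamen exceeded m-carpel by a log2 difference of 2.38 (SE 0.35, FDR 2.75e-05 from edgeR's test) and M-stamen by 1.43 (SE 0.32, FDR 0.00202). Likewise m-stamen exceeded m-carpel by 2.24 (SE 0.35, FDR 4.81e-05) and M-stamen by 1.29 (SE 0.33, FDR 0.00529). None of these 4 pairs had overlapping libraries. F-stamen and m-stamen were within each other's spread, with a difference of 0.14 (SE 0.30, FDR 0.747). M-stamen and m-carpel were not called apart either, at 0.95 (SE 0.37, FDR 0.0392). For LITCHI026999 4 of the 6 pairs were called, and 13.2% of all genes tested were called in at least 4. The share of all genes called against m-stamen was 10.5% for M-stamen (5.57% higher in m-stamen) and 36.8% for m-carpel (21.0% higher in m-stamen). For M-stamen against m-carpel it was 31.4%.

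The differences of LITCHI026999 from m-carpel held with only the 4 organs in the fit, while those from M-stamen did not, at 1.38 (FDR 0.0233) for F-stamen and 1.30 (FDR 0.0344) for m-stamen. F-stamen against M-stamen was also lost without F-stamen replicate 2 (FDR 0.0188) or 3 (FDR 0.0127) and without M-stamen replicate 1 (FDR 0.0123) or 2 (FDR 0.0122). The pair m-stamen and M-stamen was lost without M-stamen replicate 1 (FDR 0.0275) or 2 (FDR 0.0267) and without m-stamen replicate 1 (FDR 0.0179) or 3 (FDR 0.0235). Without M-stamen replicate 1 or 2, 2 of the 6 pairs were called for LITCHI026999.

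**Figure D3:**
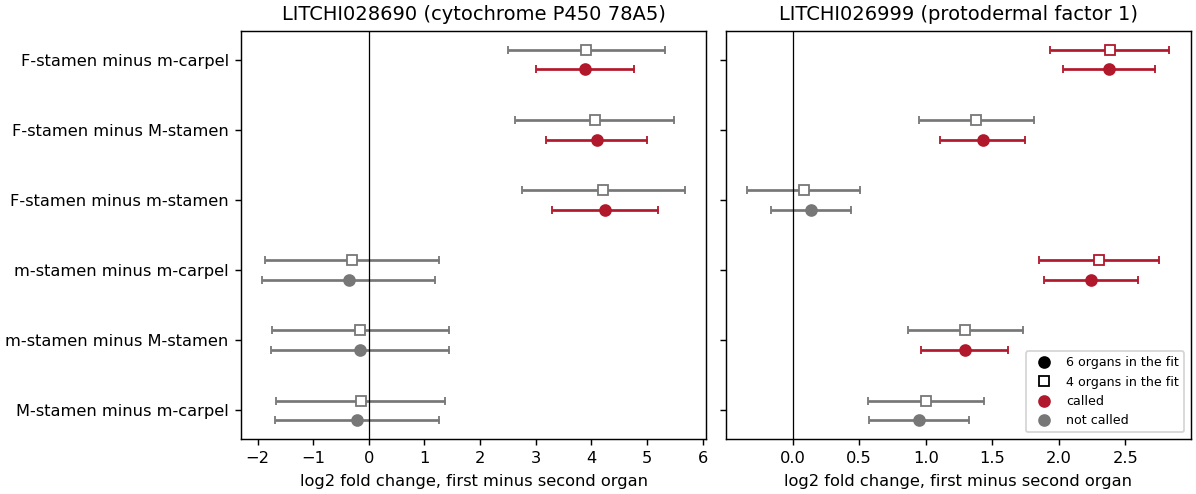
Log2 fold change (first minus second organ) of the 6 tested pairs for LITCHI028690 and LITCHI026999; circles are from the fit with 6 organs, squares from the fit with 4 organs, bars are 1 SE, and red marks called pairs and grey the others. LITCHI028690 has 3 calls with 6 organs and 0 with 4, and LITCHI026999 has 4 and 2.

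The level of the 2 genes in F-stamen, the rudimentary stamen beside the female carpel, was set against other genes that were high in F-carpel. F-stamen had 0.408% of the F-carpel level of LITCHI028690 and 0.547% of that of LITCHI026999. The ovule gene LcMADS51 had 2.26%, BEL1-like homeodomain protein 11 (LITCHI010237) had 2.36%, and Snakin-1 had between 0.345% and 0.476% over the F-stamen libraries. LITCHI028690 differed between the F-stamen libraries, with 0.677%, 0.377% and 0.170% of its F-carpel mean in replicates 1, 2 and 3. LITCHI026999 was lowest in the library where LITCHI028690 was highest, with 0.415%, 0.651% and 0.574%. LcMADS51 had 2.27%, 2.12% and 2.39% in these libraries, and BEL1-like homeodomain protein 11 had 2.47%, 1.62% and 2.98%. Over the same libraries Cyclin-D3-1 had the highest shares of these genes, 4.18% to 4.65%, and the thaumatin-like LITCHI023086 had 0.730% to 0.891%. The share of carpel RNA in the F-stamen libraries was not tested.

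Within a library, levels per length can be compared between the genes. LITCHI026999 had the higher FPKM in 18 of 18 libraries. Its FPKM was 4.63, 4.91 and 4.60 times that of LITCHI028690 in the F-carpel libraries, so the ratio was nearly fixed there. In F-stamen it was 2.89, 8.15 and 15.9 times.

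By annotation, LITCHI028690 carries the Pfam entry of the cytochromes P450 and gene ontology terms for monooxygenase activity, haem and iron binding, the endoplasmic reticulum and the membrane. It also carries terms for positive regulation of cell proliferation and of organ growth, regulation of growth rate and floral organ development. Its KEGG entry places it in the degradation of limonene and pinene and in the synthesis of stilbenoids. All of these terms were transferred from other species by the authors' annotation and no activity was measured. LITCHI026999 carries 1 gene ontology term, a component of the membrane, and its eggNOG class is function unknown. It has no Pfam, KEGG or KOG entry in the table. Its best match in the Nr database is a protodermal factor 1-like protein of Durio zibethinus (durian).

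The annotation cytochrome P450 78A5 is shared by 3 other models, and LITCHI028690 was the only abundant one. LITCHI004669 had 0.722 ± 0.193 FPKM in F-carpel, LITCHI005333 had 0.630 ± 0.185 FPKM and LITCHI023336 had 0.0962 ± 0.0469 FPKM (SD, n = 3). LITCHI004669 was higher in F-carpel than in M-carpel (log2 difference 3.70, SE 0.96, edgeR FDR 0.00416) and m-carpel (3.48, SE 0.95, FDR 0.00495). It was not called apart from F-stamen (0.281 FPKM, log2 difference 1.23, SE 0.84, FDR 0.223), and it had 0.384 FPKM in m-stamen. LITCHI005333 was also higher in F-carpel than in M-carpel (5.19, SE 1.38, FDR 0.00767) and m-carpel (4.96, SE 1.34, FDR 0.00780). However, it was almost as high in F-stamen (0.500 ± 0.409 FPKM, log2 difference 0.20, SE 1.06, FDR 0.888). LITCHI023336 was highest in F-stamen, with 3.52 ± 0.194 FPKM. It was lower in F-carpel than in F-stamen by a log2 difference of -5.27 (SE 0.46, FDR 8.52e-08) and than in m-carpel by -2.48 (SE 0.42, FDR 0.000104). Against M-carpel it was not called (0.83, SE 0.47, FDR 0.165).

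Of these 3 models, 2 were called higher in F-carpel than in M-carpel, where 13.9% of all genes were, and the median log2 difference was 3.70 against 0 over all genes. The same number was called higher than in m-carpel (18.3% of all genes), where 1 was lower (16.0% of all genes), with a median of 3.48. Between F-carpel and F-stamen 1 was called lower (18.9% of all genes), with a median of 0.20 against -0.07 over all genes. The higher calls rest on few counts: 309 counts in all for LITCHI004669 and 288 for LITCHI005333. The calls over M-carpel fell to 1 or 0 when any library of F-carpel or F-stamen, or M-carpel replicate 1 or 3, was left out, with 0 without F-carpel replicate 2, M-carpel replicate 1 or M-carpel replicate 3. Those over m-carpel fell to 1 without any 1 of the other F-carpel and F-stamen libraries or m-carpel replicate 1 or 2, and to 0 without F-carpel replicate 2 or m-carpel replicate 3. In the fits with 0 calls by edgeR, 2 models had an unadjusted p below 0.05, and DESeq2 called 2 with all libraries. Models with the same annotation can share reads if their sequences are close, and their counts are uncertain in that case.

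All models annotated as a member of CYP78A were then listed. The list was made after values had been seen and is described without a test. It holds 9 models, and 6 of the 8 besides LITCHI028690 had their highest mean in F-carpel, as did 33.3% of all genes tested. LITCHI026814, named CYP78A3, came closest to LITCHI028690 in level, with 12.9 FPKM in F-carpel and at most 0.490 FPKM elsewhere, and F-carpel held 91.7% of its summed organ means. LITCHI007760, named CYP78A7, came closest in this share, with 97.4%, but had only 1.94 FPKM in F-carpel and at most 0.0351 FPKM elsewhere. Among the further CYP78A3 models, LITCHI021840 had 1.08 FPKM and LITCHI021838 0.978 FPKM in F-carpel, whereas LITCHI021847 was highest in M-stamen with 1.53 FPKM. LITCHI028690 was therefore the most abundant CYP78A model in F-carpel, and LITCHI023336 was the most abundant in F-stamen.

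**Figure D4:**
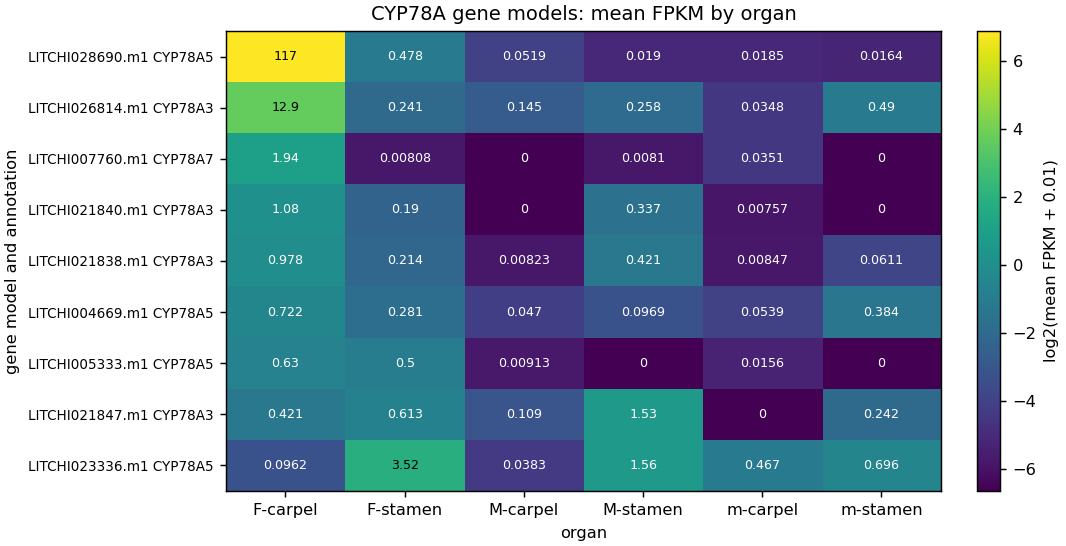
Mean FPKM (printed in each cell, n = 3 libraries) of the 9 gene models annotated as CYP78A in the 6 organs, ordered by F-carpel and coloured by log2(mean FPKM + 0.01). LITCHI028690 has 117 FPKM in F-carpel, the next model has 12.9 FPKM, and LITCHI023336 is highest in F-stamen with 3.52 FPKM.

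In the wider family more models were called lower in F-carpel than higher, though against m-carpel the counts were close. Against F-stamen all genes leaned the same way. The Pfam entry of LITCHI028690 is carried by 365 other models, of which 67 had no count and 233 were tested. Between F-carpel and M-carpel 47 of them (20.2%) were called higher and 68 (29.2%) lower, beside 13.9% and 14.7% of all genes, and their median log2 difference was -0.03. Between F-carpel and m-carpel 61 (26.2%) were higher and 68 (29.2%) lower, beside 18.3% and 16.0% of all genes, with a median of -0.08. Between F-carpel and F-stamen 38 (16.3%) were higher and 65 (27.9%) lower, beside 13.4% and 18.9% of all genes, with a median of -0.52. The highest levels in F-carpel were those of trans-cinnamate 4-monooxygenase (LITCHI031057, 567 FPKM), an enzyme at the start of phenylpropanoid synthesis, and flavonoid 3'-monooxygenase (LITCHI023381, 391 FPKM), which acts in flavonoid synthesis. Unlike LITCHI028690, both were well expressed in M-carpel as well, at 296 FPKM and 127.9 FPKM. With 117 FPKM, LITCHI028690 came after these 2 among the P450 models in F-carpel, above CYP86A22 (LITCHI022092, 109 FPKM), the hydroperoxide lyase LITCHI021330 (76.4 FPKM) and CYP84A1 (LITCHI001912, 67.4 FPKM).

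For LITCHI026999 no other model shared the Swiss-Prot or the Nr text. Its family could therefore not be compared, and the class IV homeodomain-leucine zipper genes were described in its place. This class includes ATML1 and PDF2, which bind the PDF1 promoter in Arabidopsis. Whether any listed model regulates LITCHI026999 was not tested. This list was also made after values had been seen and has no test. It holds 18 models, of which 2 had no count and 14 passed the filter on low counts. Of these 14, 5 had their highest mean in F-carpel, beside 33.3% of all genes tested. MERISTEM L1 (LITCHI029542) came closest to the pattern of LITCHI026999, with 13.1 FPKM in F-carpel and at most 0.768 FPKM in another organ. HDG5 (LITCHI020476, 32.4 FPKM), HDG2 (LITCHI021270, 25.5 FPKM), ANTHOCYANINLESS 2 (LITCHI025641, 41.2 FPKM) and HDG11 (LITCHI022983, 7.57 FPKM) were highest in F-carpel too, but the first 3 of these had at least 5 FPKM in every other organ. PROTODERMAL FACTOR 2 (LITCHI013413) had 0.0159 FPKM in F-carpel, where LITCHI026999 was highest, and 8.63 and 8.70 FPKM in F-stamen and m-stamen. ROC2 (LITCHI019575.m1) had 47.8 FPKM in F-stamen, 58.2 FPKM in m-stamen and 0.392 FPKM in F-carpel.

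**Figure D5:**
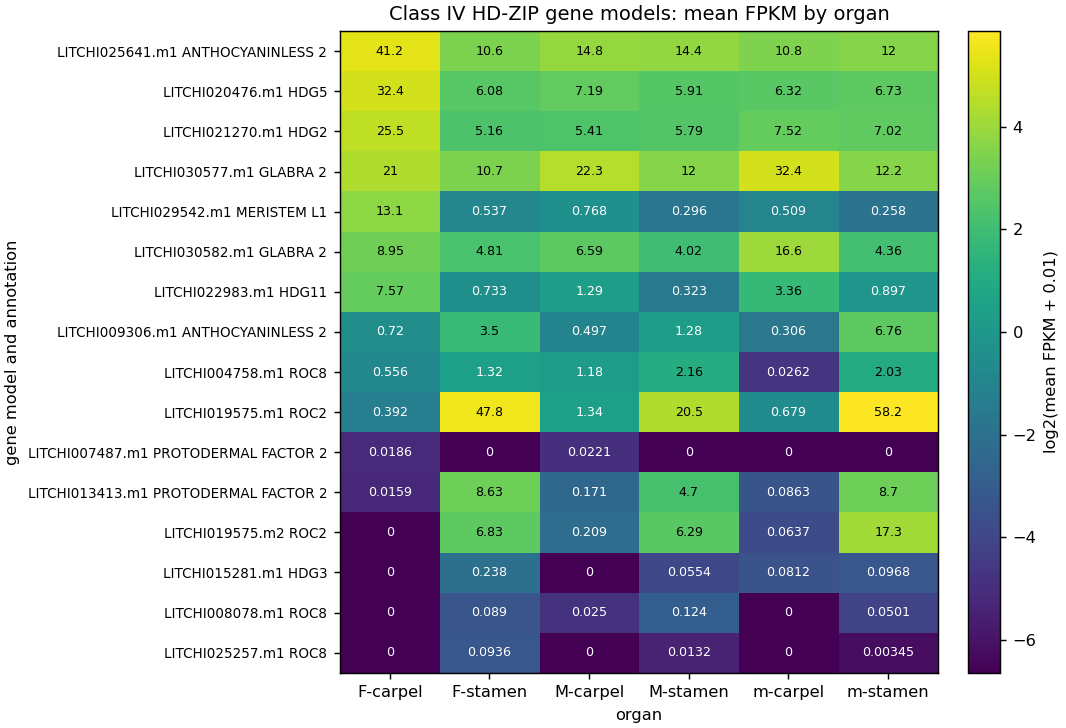
Mean FPKM (printed in each cell, n = 3 libraries) of the 16 class IV homeodomain-leucine zipper gene models with a count in the 6 organs, ordered by F-carpel and coloured by log2(mean FPKM + 0.01). MERISTEM L1 has 13.1 FPKM in F-carpel and at most 0.768 FPKM elsewhere, whereas PROTODERMAL FACTOR 2 and ROC2 are near 0 in F-carpel and highest in the stamens of F and m flowers.

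The models whose log2 CPM was most like that of each gene over the 18 libraries were listed by Pearson's r. The libraries are 6 organs in triplicate, so a gene high in F-carpel alone gains a high r, and the values are a description. Closest to LITCHI028690 were the catalytic subunit A of DNA polymerase epsilon (LITCHI024486, r = 0.983), which copies DNA, RADIALIS-like 6 (LITCHI001827, r = 0.983), a small MYB-related protein, and STRUBBELIG-RECEPTOR FAMILY 3 (LITCHI029266, r = 0.983), a receptor-like kinase. A nucleotide-sugar transporter (LITCHI016481, r = 0.980) and zinc-finger homeodomain protein 2 (LITCHI022999, r = 0.978) followed. RADIALIS-like 6 had 18.4 FPKM in F-carpel and 0.200 FPKM in F-stamen, and was listed at 0 in the other organs. The DNA polymerase subunit was less restricted, with 12.7 FPKM in F-carpel and 3.12 FPKM in F-stamen.

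Closest to LITCHI026999 were ent-kaurenoic acid oxidase 1 (LITCHI025278, r = 0.986), a cytochrome P450 of gibberellin synthesis, the probable receptor-like kinase LITCHI005580 (r = 0.978) and MCM7 (LITCHI026552, r = 0.977), a part of the helicase that opens DNA for replication. OFP17 (LITCHI031093, r = 0.975) and SQUAMOSA promoter-binding-like protein 9 (LITCHI019149, r = 0.975) followed. Their levels in F-carpel were far below the 553 FPKM of LITCHI026999, at 17.4 FPKM for the oxidase, 49.6 FPKM for LITCHI005580, 44.9 FPKM for MCM7, 8.90 FPKM for OFP17 and 8.21 FPKM for LITCHI019149. An r of at least 0.95 was found for 92 models with LITCHI028690 and for 103 with LITCHI026999, of which 26 were in both lists. Between the 2 genes themselves r was 0.939 over the 18 libraries and 0.397 over the 15 libraries outside F-carpel.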

How the data were processed

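RNA was extracted from detached carpels and stamens, and paired-end Illumina libraries were made, 3 for each of 6 organs. Reads were trimmed (Trimmomatic), freed of ribosomal RNA and kept where uniquely mapped, by the authors. The submitters' processing notes name HISAT2 2.0.4 and StringTie, and the study's methods name Cufflinks for expression values. The deposited table gives raw whole-number counts of reads for each gene model in each library. It also gives deposited FPKM values, which the authors scaled to transcript length and to the mapped fragments of the library. Neither the genome build nor the counting program was found (not given in the sources used here), and reads that fit several gene copies could be lost from unique mapping. The table also holds the FDR and log2 fold changes of 9 comparisons by the authors, which were not used. Columns were assigned to organs by their labels, and 0 sample columns were left without a sample. Positions and sequences of the genes were not analysed here.

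Counts were tested with edgeR 4.0.16 in R 4.3.3. Of 37401 models (35214 LITCHI models and 2187 listed as new), filterByExpr by organ left 27247. TMM factors were 0.823 to 1.16. The quasi-likelihood F-test was run in 1 model with 6 organs, and p-values were adjusted over all 27247 genes by the Benjamini-Hochberg method. A call needed an FDR under 0.01 and a log2 change of 1 or more in size. The SE was the absolute log2 fold change divided by the square root of F. Likeness used log2 CPM with a prior count of 2. The script was tested on simulated data.

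The 2 genes, the lists and the tests were chosen with earlier results of these data known. For the 2 genes, contrasts with F-carpel or M-carpel, which chose them, have no test. Relatives by the CYP78A5 annotation or the P450 Pfam entry were tested for F-carpel against M-carpel, m-carpel and F-stamen. The named genes are the 2 genes, the next 3 in the order that chose them, the 5 models most like each, up to 5 relatives by annotation with the highest F-carpel mean, and the organ markers. The CYP78A and class IV homeodomain-leucine zipper lists, the models with the highest F-carpel shares and the choice of genes compared in F-stamen were added after values were seen. No model is annotated as INNER NO OUTER or HECATE, which belong to the carpel markers. Alternatives were DESeq2 1.42.0, its size factors in edgeR, no filter beyond 1 count, limma 3.58.1 on log2(FPKM + 1) and log2(FPKM + 0.1), a block for the replicate number, a fit with only 4 organs, an FDR limit of 0.05, a call without the fold limit, and each library left out. The log2(FPKM + 1) scale understates changes of low genes. Libraries of an organ differed by a chi-square of 18.7 to 70.4 per gene, so none was a copy.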

Additional observations from a re-analysis of the deposited data

How the results depend on the processing

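Of 920 values computed under the alternatives, 835 were taken as kept, and 12 reversed, all of them differences that were not called. A difference was kept by its direction and side of the threshold or by the replicate spread. A count of calls was kept if it stayed near the main count, which is a loose rule. The P450 models called higher in F-carpel than in M-carpel, 47 in the main fit, were 35 to 51 with a library left out and 41 to 60 otherwise. Those called lower than in F-stamen, 65 in the main fit, were 55 to 67 and 46 to 84. The share in F-carpel was 99.4% for LITCHI028690 and 98.4% for LITCHI026999 with CPM after TMM. On log2(FPKM + 1), F-carpel exceeded M-carpel, m-carpel, F-stamen, M-stamen and m-stamen by 6.81, 6.86, 6.34, 6.86 and 6.86 for LITCHI028690, and M-carpel, m-carpel and M-stamen by 8.41, 8.51 and 8.11 for LITCHI026999. The pseudocount by its construction lowers these values. On log2(FPKM + 0.1) the differences of LITCHI028690 from m-carpel, M-stamen and m-stamen were 9.96, 9.98 and 10.003, and that of LITCHI026999 from m-stamen was 7.96. The F-stamen differences of LITCHI028690 from M-stamen, m-stamen and m-carpel were 0.52, 0.52 and 0.52 on log2(FPKM + 1), under the minimum fold change although limma's FDR was 0.00119 to 0.00154, so that 0 pairs were called there (3 at an unadjusted p below 0.05), and 3 with log2(FPKM + 0.1). With 4 organs they were 4.06, 4.21 and 3.91, and 0 were called. M-stamen minus m-carpel, not called, turned to 0.00035 on log2(FPKM + 1). For LITCHI026999, F-stamen minus M-stamen was 0.99 on log2(FPKM + 1) and 1.38 with 4 organs, m-stamen minus M-stamen was 0.64 on log2(FPKM + 1), 1.03 on log2(FPKM + 0.1) and 1.30 with 4 organs, and 2 of the 6 pairs were called on log2(FPKM + 1) and with 4 organs. On log2(FPKM + 1), 0 models annotated as CYP78A5 were called higher in F-carpel than in M-carpel or m-carpel, and 0 lower than in m-carpel. In these, 2 were higher and 1 was lower at an unadjusted p below 0.05, as limma gave them. The cause was not tested.

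With each library left out in turn, F-carpel minus M-carpel, M-stamen and m-stamen ranged from 10.21 to 11.96, 11.34 to 15.77 and 11.49 to 15.78 for LITCHI028690. F-stamen minus M-stamen ranged from 3.41 to 7.98, F-stamen minus m-stamen from 3.59 to 7.99, m-stamen minus M-stamen from -3.90 to 3.73, m-stamen minus m-carpel from -4.11 to 0.19 and M-stamen minus m-carpel from -4.10 to 0.34. Its called pairs ranged from 1 to 3. For LITCHI026999, F-stamen minus M-stamen ranged from 1.15 to 1.81, F-stamen minus m-stamen from -0.11 to 0.27, m-stamen minus M-stamen from 1.12 to 1.67, and called pairs from 2 to 4. The models annotated as CYP78A5 called higher than in M-carpel and m-carpel ranged from 0 to 2 and 0 to 2.

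Replicate numbers did not pair the samples: over 45 same-numbered pairs r was between -0.039 and 0.047, and 12 had their own number as the best match. With the replicate number as a block, 1 model annotated as CYP78A5 was called higher than in M-carpel and 1 than in m-carpel, in place of 2 and 2, and no call of the 2 genes changed. Of the 5 most alike models of LITCHI028690, 1 stayed on log2(FPKM + 1), 1 over organ means and 1 over the 15 libraries outside F-carpel. For LITCHI026999 2, 0 and 0 stayed. Outside F-carpel and F-stamen, the depth does not order the levels of LITCHI028690.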

Other observations

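Further abundant models held nearly all of their level in F-carpel, although less than the 2 genes did. They included 3 histone models, which pack newly copied DNA: 2 annotated as histone H3.2 (LITCHI024057, 254 FPKM in F-carpel and a share of 91.6%; LITCHI007255, 273 FPKM and 91.4%) and 1 as histone H4 (LITCHI016378, 172 FPKM and 90.8%). STS14 (LITCHI006728), a protein known from potato pistils, had 503 FPKM in F-carpel and a share of 93.9%, and its mean in m-carpel was 25.1 FPKM, where LITCHI026999 had 0.531 FPKM and LITCHI028690 0.0185 FPKM. The aspartyl protease AED3 (LITCHI019813) had 101 FPKM and a share of 94.3%. These models were picked by their share after values were seen and were not tested.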
